A study of Rattus norvegicus with 10 samples.

Results

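The 9 genes described here, Stat2, Irf7, Mx1, Mx2, Ifit2, Ifit3, Ifitm3, Isg15 and Usp18, belong to the antiviral response to type I interferon. They are 9 of 14217 genes that a probe set of the array names alone, and they are read by 12 of 31042 probe sets. All probe sets that name one of these genes and no other were kept. The genes were selected on values of these same animals, with their exposed minus control differences known. Levels by group and differences between groups are therefore given as a description, without a test of their own.

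Liver RNA came from 10 male Sprague-Dawley rats, an outbred strain, of which 5 served as controls and 5 underwent short-term exposure to waste water (effluent) of bulk drug industries. Age, dose, route and length of exposure are not given in the labels. Each array held the RNA of 1 animal, hybridised as biotin-labelled cRNA to an Affymetrix 3' expression array, and each probe set has a log2 value normalised between arrays by RMA. Values of different probe sets are not on a common scale, so levels are compared between animals and not between genes. Of 8 hepatocyte markers listed, 7 were measured, among them albumin (Alb) at 14.99 in controls, and their mean lay between 14.29 and 14.36 in all 10 livers. Array medians lay between 5.43 and 5.49, any array correlated with any other at 0.991 to 0.996, and precision is limited by how many arrays there are.

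Cells that detect viral nucleic acid secrete type I interferons, which bind a receptor made of Ifnar1 and Ifnar2 on neighbouring cells. The kinases Jak1 and Tyk2 then phosphorylate Stat2, which enters a complex with Irf9 that binds interferon-stimulated response elements in target promoters. Irf7, itself a target, drives more interferon production, while the Mx GTPases, the Ifit RNA-binding proteins and the membrane protein Ifitm3 block steps of viral entry or replication. Isg15 is a ubiquitin-like modifier, and Usp18 removes it from proteins and also damps signalling at the receptor. Hepatocytes, Kupffer cells and lymphocytes of the liver all carry the receptor.

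Several of the genes lie near each other. In the RefSeq annotation of rat assembly GRCr8, Irf7 spans chr1:205796956-205800543 and Ifitm3 chr1:205540649-205541758. Ifit2 lies at chr1:241515735-241521799, near Ifit3 at chr1:241527326-241532469, and Mx1 at chr11:50269056-50294699, near Mx2 at chr11:50375101-50399373. Isg15 lies on chromosome 5, Usp18 on chromosome 4 and Stat2 on chromosome 7.

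Promoter windows of 300 bases, from 250 before to 50 after the start of transcription, were found in RefSeq (GRCr8) for 5 of the 9 genes, Mx1, Ifit3, Irf7, Stat2 and Ifitm3. Mx2, Ifit2, Isg15 and Usp18 had no entry in that table. Both strands were searched for the core of the interferon-stimulated response element, written GAAANNGAAA. It was present in 3 of the 5 windows and in 3.92% of 33469 RefSeq promoter windows of the same length. These 3 windows are shown because they hold a match to the element that the Stat2 complex is known to bind. They are written 5′ to 3′ on the strand of the gene, with the matching bases in capitals, for Ifit3 (chr1:241527076-241527375, plus strand), Irf7 (chr1:205799974-205800273, minus strand) and Ifitm3 (chr1:205541709-205542008, minus strand):
Ifit3: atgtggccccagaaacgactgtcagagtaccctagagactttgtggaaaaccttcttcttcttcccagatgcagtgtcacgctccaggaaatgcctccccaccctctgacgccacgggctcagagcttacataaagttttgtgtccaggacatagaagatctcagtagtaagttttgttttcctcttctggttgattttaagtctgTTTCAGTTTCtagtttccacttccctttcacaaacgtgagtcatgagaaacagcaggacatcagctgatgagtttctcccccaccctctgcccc
Irf7: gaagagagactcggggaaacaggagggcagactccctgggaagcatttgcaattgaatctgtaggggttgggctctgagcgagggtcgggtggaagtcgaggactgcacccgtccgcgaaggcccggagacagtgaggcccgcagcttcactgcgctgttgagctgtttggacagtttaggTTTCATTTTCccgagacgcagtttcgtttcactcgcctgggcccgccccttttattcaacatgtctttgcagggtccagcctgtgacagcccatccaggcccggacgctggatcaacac
Ifitm3: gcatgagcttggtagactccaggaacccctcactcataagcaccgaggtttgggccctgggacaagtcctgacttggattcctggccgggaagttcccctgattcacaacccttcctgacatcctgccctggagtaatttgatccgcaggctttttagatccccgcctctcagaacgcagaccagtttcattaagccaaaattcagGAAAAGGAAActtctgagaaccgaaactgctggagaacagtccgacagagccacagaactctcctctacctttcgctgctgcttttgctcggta

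The match began 44 bases before the start in both Ifit3 and Ifitm3 and 69 bases before it in Irf7. The start used for the Irf7 window lies 520 bases inside the span given for that gene, while those of Ifit3 and Ifitm3 are at the gene end. In Ifit3 and Irf7 it was read on the opposite strand and in Ifitm3 on the strand of the gene. The palindromic core of the gamma-activated site, TTCNNNGAA, was present in 1 of the 5 windows, that of Ifitm3, without overlap with the other match, and in 8.87% of all windows. The Mx1 and Stat2 windows held neither run of letters. Among 36 windows of other interferon-stimulated effector genes, 24 held GAAANNGAAA, including those of Oas1a, Rsad2, Bst2 and Cxcl10. A match is a description of the letters and not a measured binding site.

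Across all probe sets, limma called 0 of 31042 between exposed and control livers at an adjusted p of 0.05, so percent called was 0, and 1695 (5.46%) had an unadjusted p under 0.05. Without exposed animal 1 it called 1, the second Mx2 probe set. Of the 12 probe sets, 0 were likewise called. The group difference was above 0 for 11 of the 12, where 52.0% of all probe sets lay above 0. With each gene read by its brightest probe set, all 9 were higher in exposed livers, a difference known when they were chosen, with a median difference of 0.29 against 0.0044 for all probe sets. The groups did not overlap for 1 of the 12, the first Mx2 probe set, while 0.570% of all probe sets were non-overlapping with exposed animals higher. In whole liver, a change in the share of a cell type and a change in RNA per cell cannot be told apart.

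Of the signalling factors, Stat2 had smaller differences between the groups than Irf7. On its first probe set, controls 1 to 5 read 8.59, 8.73, 8.57, 8.65 and 8.86 and exposed animals 1 to 5 read 8.95, 8.74, 8.94, 8.67 and 8.79. On the second, controls read 7.94, 8.36, 8.15, 8.37 and 8.42 and exposed animals 8.44, 8.21, 8.60, 8.03 and 8.47. The ranges overlapped on both. The differences were 0.14 ± 0.08 and 0.10 ± 0.12 (SE of the limma fit, n = 5 each), and the second moved to 0.026 without control animal 1, to 0.04 without exposed animal 3 and to 0.18 without exposed animal 4. Exposed animals 1 and 3 were highest on the first probe set, although animal 3 was among the lowest of its group for most other genes.

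Irf7, the factor that amplifies interferon production, read 8.65, 8.41, 8.40, 8.73 and 8.80 in controls 1 to 5 and 8.89, 8.71, 8.61, 9.11 and 8.95 in exposed animals 1 to 5. Exposed animals 1, 4 and 5 lay above every control, and animals 2 and 3 lay within the control range. The difference was 0.26 ± 0.11 (SE), or 1.20-fold.

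**Figure D1:**
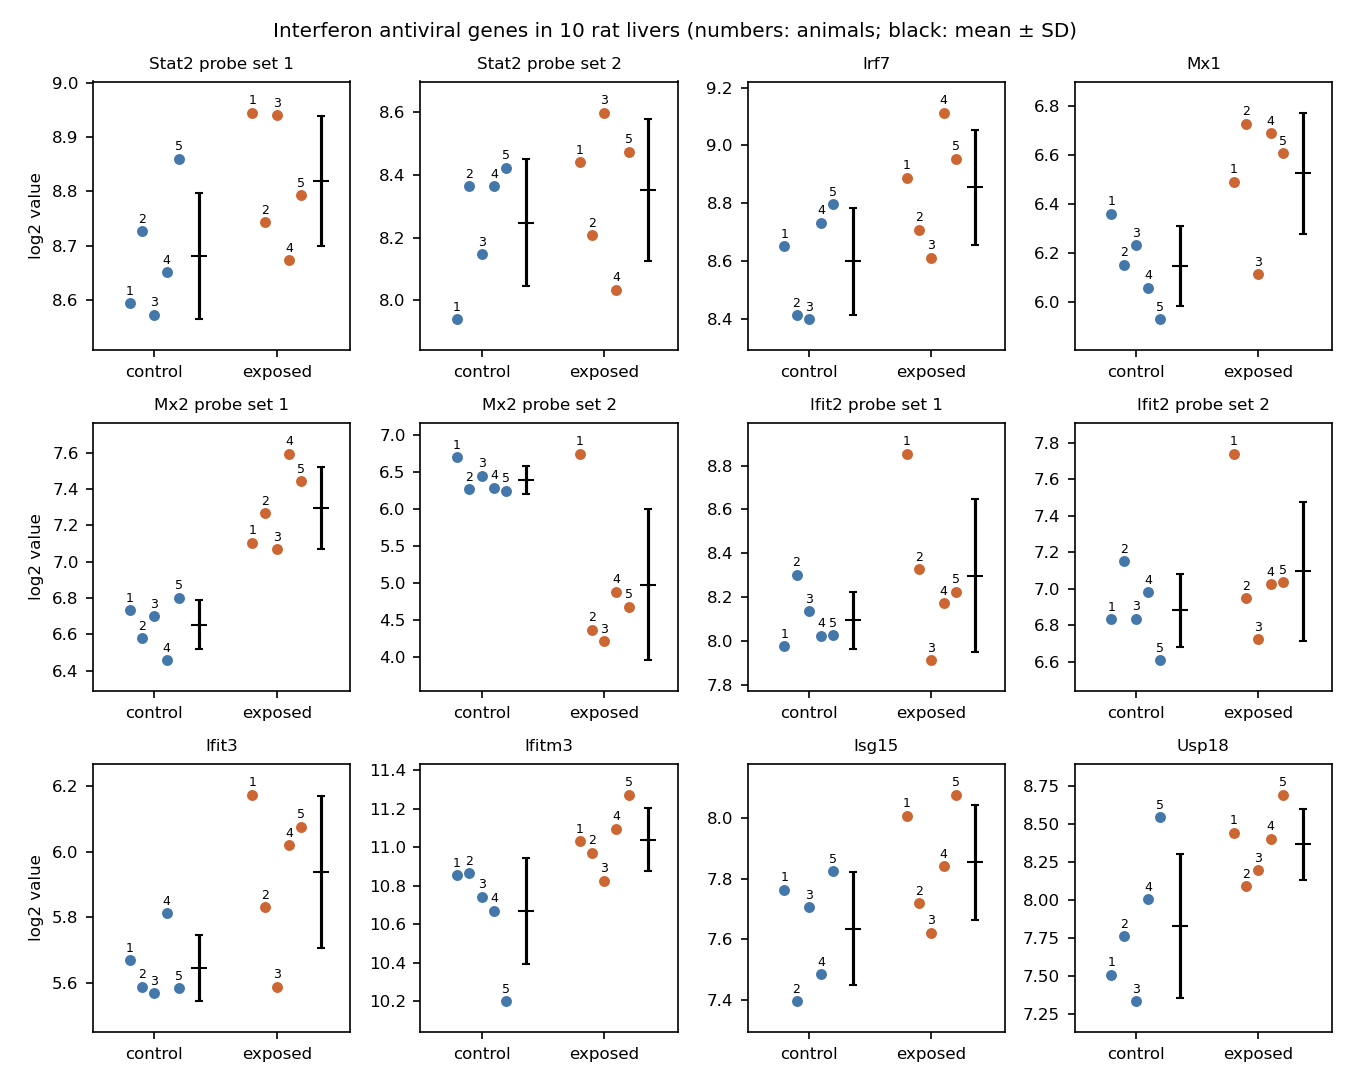
Log2 values (vertical axes, a separate scale in each panel) of the 12 probe sets in 5 control and 5 exposed livers; each point is 1 animal with its number, and black bars give the mean ± SD. The first Mx2 probe set is the panel without overlap between groups, and the second Mx2 probe set shows exposed animal 1 at 6.75 above the other exposed animals at 4.21 to 4.88.

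Among the effectors, Mx1, a GTPase that traps viral nucleocapsids, read 6.36, 6.15, 6.23, 6.06 and 5.93 in controls and 6.49, 6.73, 6.11, 6.69 and 6.61 in exposed animals, each in order 1 to 5. Exposed animals 1, 2, 4 and 5 exceeded all controls, and exposed animal 3 fell among them. Its difference was 0.38 ± 0.12 (SE), or 1.30-fold.

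Mx2, its paralogue, is read by 2 probe sets (1387283_at and 1369202_at) that the annotation ties to the same transcript record, and they disagreed. The first read 6.73, 6.58, 6.70, 6.46 and 6.80 in controls and 7.10, 7.27, 7.07, 7.60 and 7.44 in exposed animals. All 5 exposed livers lay above the highest control, the nearest by 0.27, and the group means differed by 0.64 ± 0.10 (SE), or 1.56-fold. The second read 6.69, 6.27, 6.45, 6.29 and 6.25 in controls and 6.75, 4.37, 4.21, 4.88 and 4.68 in exposed animals. Exposed animal 1 lay just above the highest control, and the other 4 exposed animals lay far below the lowest one. These 4 values exceeded 28.5% to 39.3% of the probe sets on their own arrays, against 62.3% to 68.4% for the controls and 68.9% for exposed animal 1. The mean difference was -1.41 ± 0.37 (SE), and -1.85 without exposed animal 1. The spread within groups on this probe set, an SD of 0.74, exceeded that of 99.7% of all probe sets, whose median SD was 0.13. Without exposed animal 1 it was 0.24, above 92.0% of them. Which probe set follows the Mx2 transcript was not tested.

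Ifit2, which binds viral RNA and restrains its translation, gave 2 probe sets that ran together. The first read 7.98, 8.30, 8.14, 8.02 and 8.03 in controls and 8.85, 8.33, 7.91, 8.17 and 8.23 in exposed animals. On the second, control values were 6.83, 7.15, 6.84, 6.98 and 6.61 and exposed values 7.74, 6.95, 6.72, 7.03 and 7.04. On both, exposed animal 1 stood highest of all 10 and the other exposed animals lay near the controls. The differences of 0.20 ± 0.14 and 0.21 ± 0.16 (SE) dropped to 0.066 and 0.053 without this animal.

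Its relative Ifit3 read 5.67, 5.59, 5.57, 5.81 and 5.59 in controls and 6.17, 5.83, 5.59, 6.02 and 6.07 in exposed animals. Exposed animal 1 was again highest, but animals 2, 4 and 5 also passed the highest control, and the difference of 0.29 ± 0.10 (SE) was 0.23 without animal 1. Ifitm3, which hinders the fusion of viruses with endosomal membranes, read 10.86, 10.87, 10.74, 10.67 and 10.20 in controls and 11.03, 10.97, 10.83, 11.10 and 11.27 in exposed animals. Control animal 5 was the lowest, 4 exposed animals lay above all controls, and the difference was 0.37 ± 0.12 (SE), or 0.26 without control animal 5.

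For the modifier Isg15, control values were 7.76, 7.40, 7.71, 7.48 and 7.83 and exposed values 8.01, 7.72, 7.62, 7.84 and 8.08. The ranges overlapped, with a difference of 0.22 ± 0.11 (SE) and exposed animals 1, 4 and 5 above all controls. Usp18, the protease that acts on it, read 7.507, 7.758, 7.330, 8.003 and 8.542 in controls and 8.442, 8.088, 8.196, 8.403 and 8.693 in exposed animals. Controls spread widely (SD 0.47), control animal 5 was above 4 of the 5 exposed animals, and exposed animal 5 alone passed it. The difference was 0.54 ± 0.20 (SE), from 0.41 without control animal 3 to 0.71 without control animal 5.

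**Figure D2:**
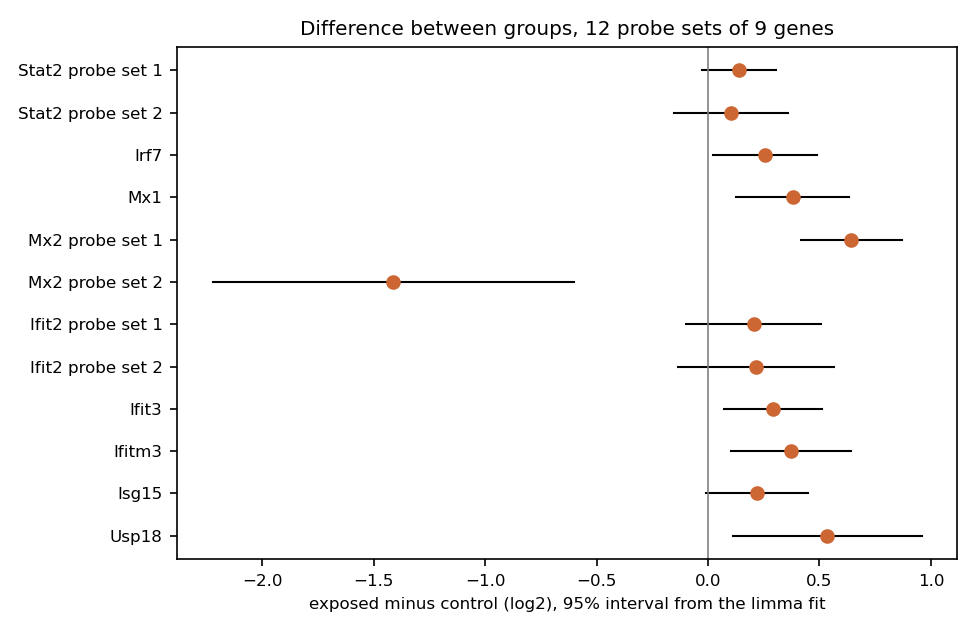
Exposed minus control on the log2 scale (horizontal axis) for the 12 probe sets, with dots for the estimate and lines for the 95% interval of the limma fit over 5 control and 5 exposed animals. The first Mx2 probe set lies farthest up at 0.64, and the second is the only one below 0, at -1.41. The genes were chosen with these differences known, which the intervals do not allow for, so an interval that leaves out 0 is not a test.

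The same animals did not lead in every gene. With each gene read by its brightest probe set, exposed animal 3 was the lowest of its group in 7 of the 9 genes and the highest in 0, Stat2 and Usp18 being those in which another exposed animal was lowest. Exposed animals 1 and 5 were each highest in 3 genes. Among controls, animal 3 was lowest in 4 genes and animal 5 highest in 5 and lowest in 2. The mean of the 9 genes, each set against its own mean over the 10 livers, was -0.17 ± 0.05 (SD, n = 5) for controls and 0.17 ± 0.15 (SD, n = 5) for exposed livers. Exposed values ran from -0.065 in animal 3 to 0.30 in animal 5, and control values from -0.23 to -0.10. Within groups the 12 probe sets had a median SD of 0.21.

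Co-variation was read from values with group means removed, which leaves the exposed minus control contrast out. Of the 36 pairs of genes, 26 correlated above 0 and 10 below, with a median r of 0.22 where the median over all pairs of genes on the array was 0.00. An r above 0.5 was reached by 10 pairs (27.8%), against 10.0% of all gene pairs. All pairs share the same 10 animals and arrays.

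Irf7 was set against each of the other 8 genes, and the Mx2 probe sets against each other, which makes 9 relations tested by two-sided exact permutation within groups. After Benjamini-Hochberg adjustment 0 passed, and 1 had an unadjusted p under 0.05 by r and 0 by rho. Irf7 and Usp18 lay on the same side of their group means in 9 of 10 animals, with r = 0.68 (exact permutation p 0.0362, adjusted 0.253) and rho = 0.66 (exact permutation p 0.0567, adjusted 0.335). Without the 2 animals farthest from the median of Irf7, control 3 and exposed 3, r was 0.58. Irf7 and Ifit3 also shared their side in 9 of 10 animals, with r = 0.66 (exact permutation p 0.0562, adjusted 0.253) and rho = 0.58 (exact permutation p 0.121, adjusted 0.362), and r = 0.42 without those 2 animals. Neither r kept its sign once the replicate number was removed as a block along with group means. Under that setting r with Irf7 was -0.075 for Usp18 and -0.35 for Ifit3, but 0.75 for Mx2 and 0.51 for Isg15. These r rest only on the differences between same-numbered animals, fewer values than there are animals, and 0 of the 9 relations passed after adjustment.

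Irf7 correlated with Mx2 at r = 0.55 and rho = 0.64 and with Isg15 at r = 0.54 and rho = 0.45 (exact permutation, adjusted p 0.297 for both r, 0.335 and 0.485 for rho). For Mx1, Ifit2, Stat2 and Ifitm3, r with Irf7 lay between -0.10 and 0.18, with signs that changed when single animals were left out (exact permutation, adjusted p 0.942 to 0.968). Irf7 and Ifitm3 ran opposite ways in the 2 groups, with r = -0.67 among the 5 controls and 0.76 among the 5 exposed livers; the difference between these was not tested.

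Over all 66 pairs of the 12 probe sets, an extension added after the data were seen, 0 passed after adjustment by r or by rho, with 7 at an unadjusted p under 0.05 by r and 5 by rho in the exact permutation test. The lowest were Mx1 and Stat2, which ran against each other. Their r was -0.80 on the first Stat2 probe set and -0.83 on the second, with rho of -0.78 and -0.88, and the animals lay on opposite sides of their group means in 8 of 10 cases on both (exact permutation, adjusted p 0.173 for both r, 0.377 and 0.220 for rho). Both groups showed it, with r of -0.83 in controls and -0.80 in exposed animals on the first probe set (n = 5 each), and r was -0.68 without the 2 animals farthest from the median of Mx1. Both genes had higher means in the exposed group.

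**Figure D3:**
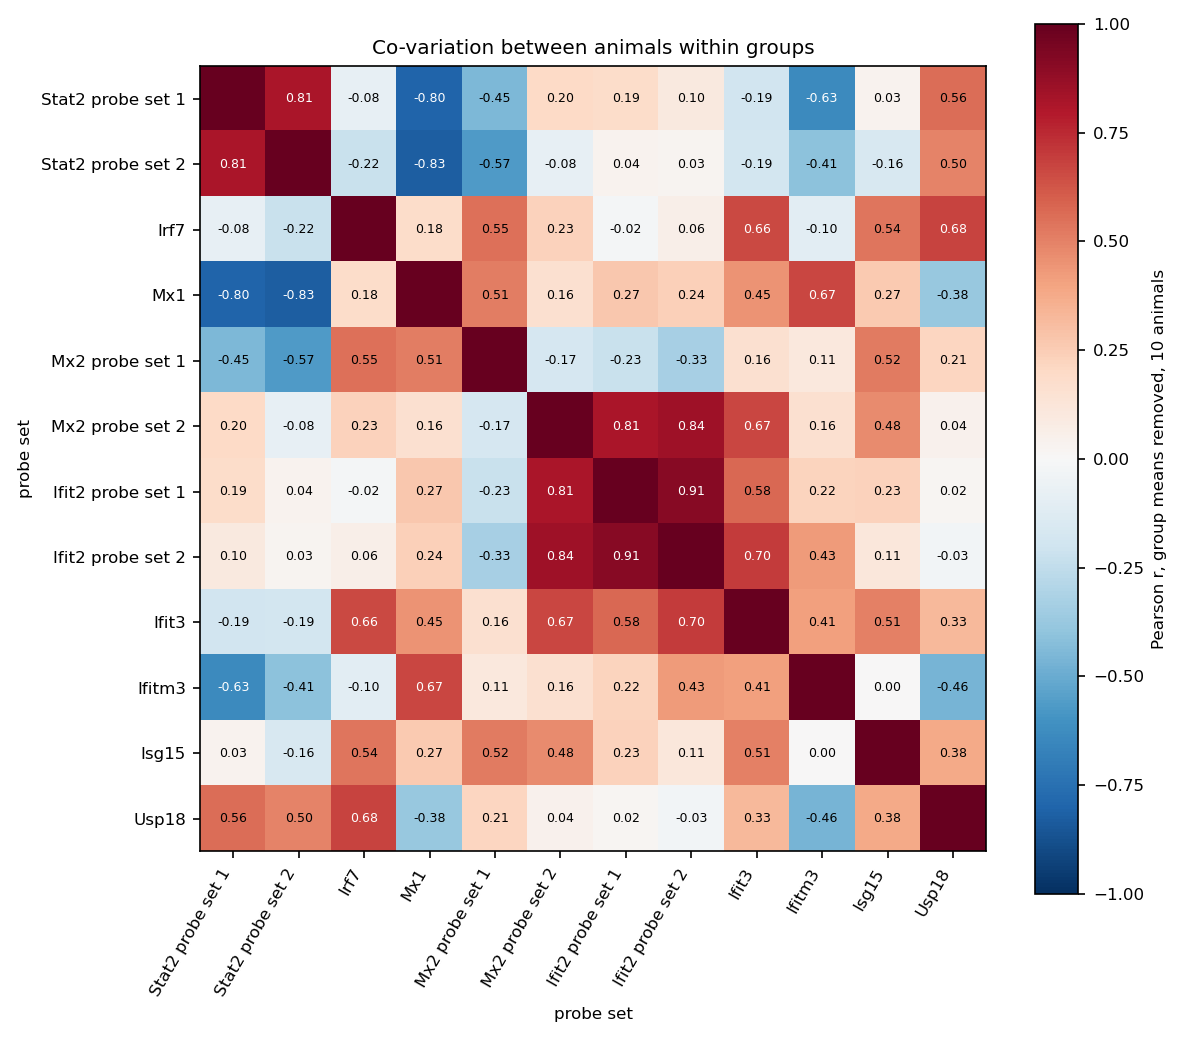
Pearson r between the 12 probe sets over 10 livers with group means removed, as a grid coloured from blue (-1) through white (0) to red (1). Irf7, Ifit3, Isg15 and Usp18 share values from 0.33 to 0.68, Mx1 is at -0.80 and -0.83 with the Stat2 probe sets, and the second Mx2 probe set is closest to the Ifit2 probe sets. With the replicate number also removed (not shown), Irf7 was at -0.35 with Ifit3, -0.075 with Usp18 and 0.51 with Isg15.

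Probe sets of one gene did not behave alike across the genes. The array holds 3061 genes with exactly 2 probe sets, whose median correlation between the pair was 0.27. The Ifit2 pair correlated at 0.91, above 95.4% of these genes, and the Stat2 pair at 0.81, above 90.0%. The Mx2 pair correlated at -0.17, above 18.4% of them (rho = 0.14, exact permutation p 0.814 for r and 0.743 for rho, adjusted 0.942 and 0.922), but at 0.77 without exposed animal 1.

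The second Mx2 probe set instead correlated with the Ifit2 probe sets at r = 0.81 and 0.84 (rho = 0.34 and 0.71; exact permutation, adjusted p over 66 pairs 0.514 and 0.409 for r, 0.917 and 0.499 for rho). This rested on exposed animal 1, the highest of its group on all 3, since r was 0.092 and 0.30 without it. With controls alone, r was -0.42 and -0.14.

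**Figure D4:**
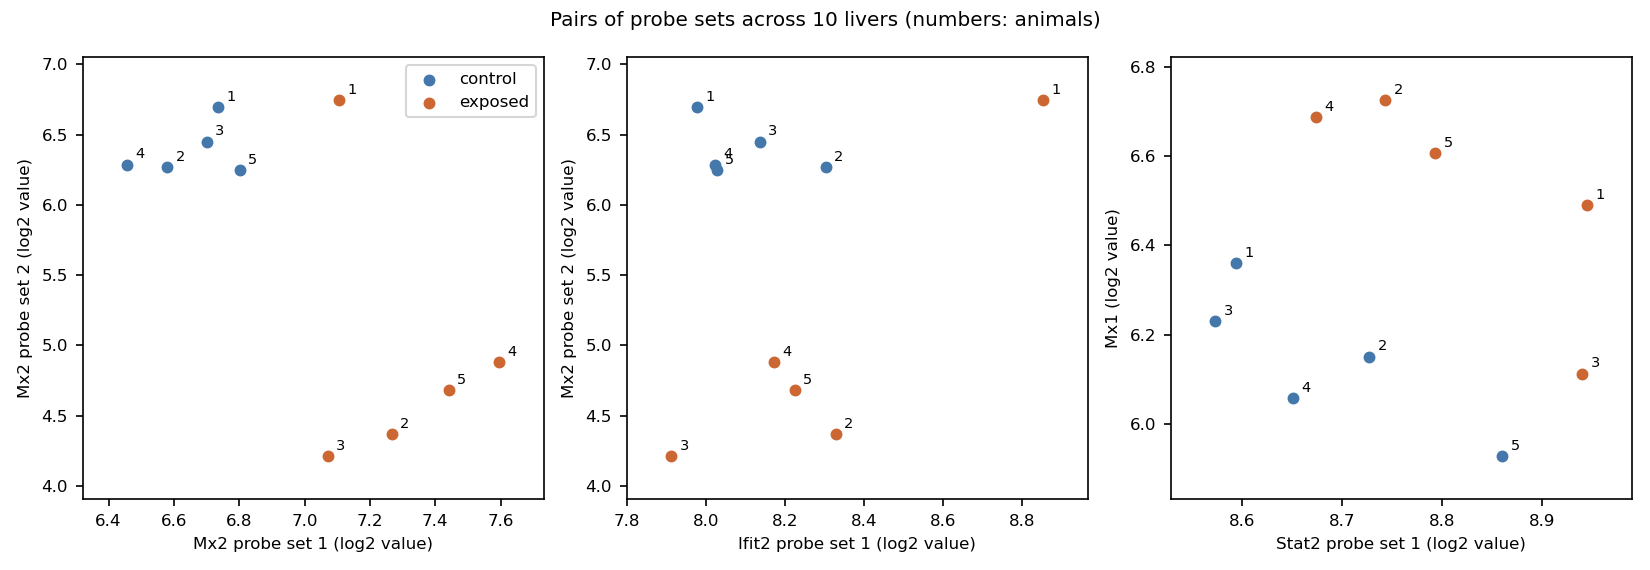
Log2 values of pairs of probe sets in 10 livers, 1 point per animal with its number: the second against the first Mx2 probe set, the second Mx2 probe set against the first Ifit2 probe set, and Mx1 against the first Stat2 probe set. Exposed animal 1 stands apart in the first and second panels, and in the third Mx1 falls as Stat2 rises within each group.

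The genes whose within-group pattern was most like the mean of the 9 genes were Klrc2, Gng3, Cma1, Wdr41, Olfml2b, Plxdc1, Htr1a, Pdpn, Fndc5 and Gnl1, with Pearson r from 0.93 to 0.89 over the 10 animals. Probe sets of 9 of these 10 had a mean below that of the median probe set, 0 of the 10 were in a list of the pathway, and an r of at least 0.8 was reached by 71 probe sets, or 0.341%. Between 0 and 5 of the 10 names were shared when single animals were left out, and 3 after quantile normalization. The 5 genes most like the first Mx2 probe set were Casp9, Lama1, Mr1, Elk3 and Igsf1 (r from 0.94 to 0.91), and those most like the second were Olfm1, Hipk4, Mrpl3, Plpp5 and Atad3a (r from 0.95 to 0.90).

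The rest of the pathway was read from lists of 100 gene names, which led to 75 measured genes, each read by its brightest probe set. None of the 75 was called by limma, with 8 at an unadjusted p under 0.05, of which 7 were higher in exposed livers. Of all probe sets, 1695 of 31042 (5.46%) had such a p. The lists were written with earlier results of these data known, so their counts are a description. In all, 54 were higher and 21 lower, with a median difference of 0.07 against 0.29 for the 9 genes and 0.0044 for all probe sets. Within groups the median r with the mean of the 9 genes was 0.22 for these genes and -0.0021 for all probe sets outside the 9.

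Of the ligands, 3 were measured, Ifnb1, Ifnk and Ifng, each with a mean under that of the median probe set and with differences of 0.10, -0.08 and -0.04. All 9 receptor subunits and kinases were a little higher in exposed livers, by 0.17 ± 0.08 (SE) for Ifnar1, 0.10 ± 0.11 for Ifnar2, 0.02 ± 0.06 for Jak1 and 0.08 ± 0.07 for Tyk2. Irf9, the partner of Stat2, differed by 0.21 ± 0.08, Irf3, which starts interferon transcription, by -0.08 ± 0.08 and Irf1 by -0.08 ± 0.20. Stat3, a factor of cytokine signalling named here after its value was seen, differed by -0.31 ± 0.10. It was the lower one of the 8 genes at an unadjusted p under 0.05. Every exposed liver lay below every control, but narrowly, with the highest exposed value at 9.116 and the lowest control at 9.135. The share of all probe sets separated in this direction was not computed. Tlr3 was not analysed here. Of these factors and receptors 0 were called.

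Among sensors of viral RNA, 0 were called. The differences were 0.12 ± 0.08 (SE) for Rigi (formerly Ddx58, written Rig1 in the array annotation), 0.06 ± 0.09 for Ifih1 and 0.07 ± 0.13 for Tlr7. They were 0.00 ± 0.08 for Mavs, the adaptor of Rigi and Ifih1, and -0.05 ± 0.13 for Myd88, the adaptor of Tlr7. Among inhibitors, 5 of 6 were lower, by at most 0.10, and Socs1, which blocks the receptor kinases, differed by 0.01 ± 0.07. Of 40 other effectors 32 were higher and 8 lower, with a median of 0.11, and the 6 at an unadjusted p under 0.05 were all higher. Cxcl10, a chemokine, differed by 0.32 ± 0.09. It and Stat3 were the 2 of the 75 whose groups did not overlap, Cxcl10 with exposed animals higher by a gap of 0.0056 and Stat3 with them lower. Of all probe sets, 0.570% were non-overlapping with exposed animals higher, and the share with them lower was not computed. Among those 6, Gbp2, an interferon-induced GTPase, differed by 0.49 ± 0.17, Oasl, a relative of the oligoadenylate synthetases, by 0.33 ± 0.10 and Cmpk2, a nucleotide kinase, by 0.28 ± 0.11, all 3 named after their values were seen. Ifit1 differed by 0.13 ± 0.12, the oligoadenylate synthetase Oas1a by 0.12 ± 0.15, the kinase Eif2ak2 by 0.11 ± 0.17 and the tethering protein Bst2 by 0.07 ± 0.09. Rsad2, which encodes viperin, varied widely in both groups, at 7.95 ± 0.71 (SD, n = 5) for controls and 8.15 ± 0.72 (SD, n = 5) for exposed livers.

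**Figure D5:**
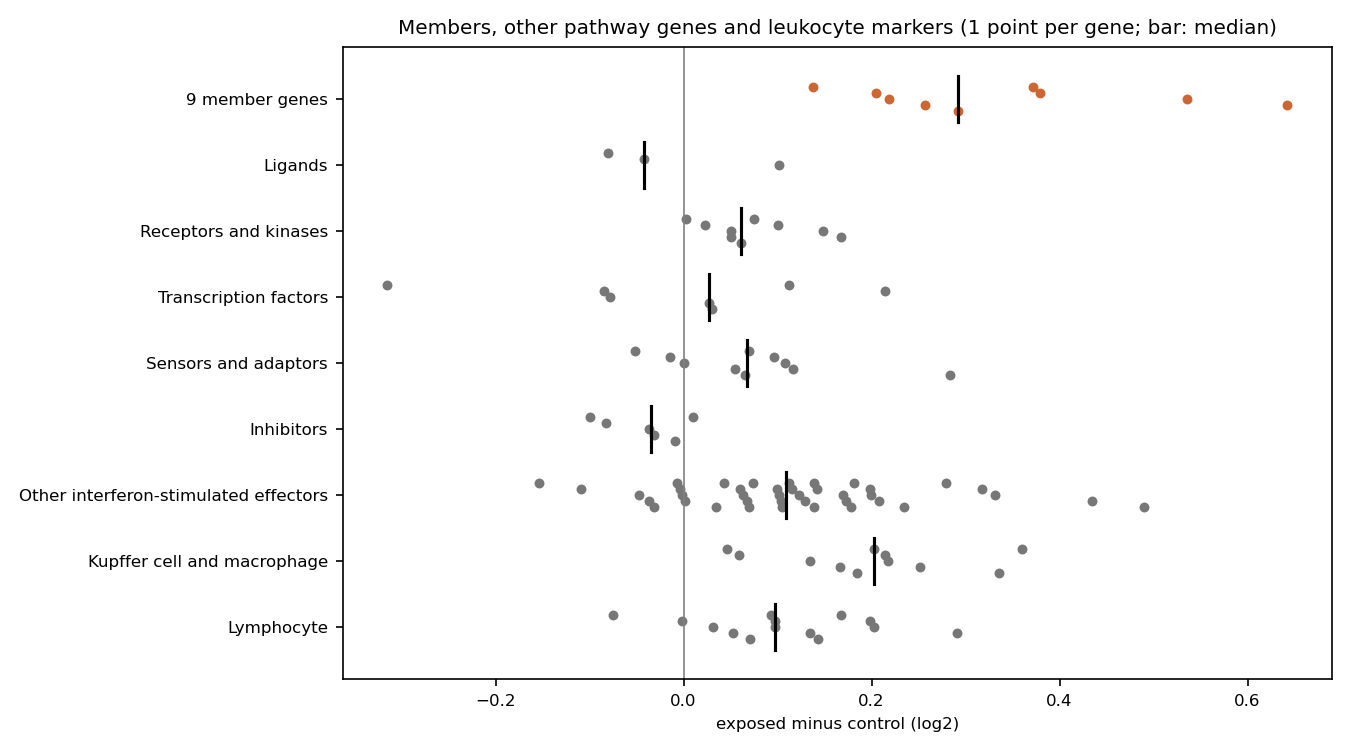
Exposed minus control on the log2 scale (horizontal axis) for the 9 genes, 6 lists of other pathway genes and 2 lists of leukocyte markers; each point is 1 gene and the black bar is the median of the list. The 9 genes, chosen with this difference known, have a median of 0.29, the other effectors 0.11 and the Kupffer cell and macrophage markers 0.20.

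Markers of leukocytes, which also make and answer interferon, were read in the same livers. Kupffer cell and macrophage markers were higher in exposed livers for 11 of 11 measured, with a mean level of 8.22 to 9.32 in controls and 8.51 to 9.42 in exposed animals. Lymphocyte markers were higher for 12 of 14, at 5.04 to 5.37 in controls and 5.02 to 5.49 in exposed animals, and the T cell markers Cd3d, Cd3e and Cd3g all had means below that of the median probe set. Plasmacytoid dendritic cell markers, from the cells that make most type I interferon, were higher for 3 of 4, at 7.14 to 7.46 and 7.22 to 7.56, but 3 of these 4 (Bst2, Irf8 and Tlr7) are also counted among the 75 pathway genes, and the defining markers Siglech, Spib and Ccr9 were not analysed here. Neutrophil markers were higher for 2 of 5 and sinusoidal endothelium markers for 3 of 5. None of these markers was called by limma, and the ranges of the groups overlapped for all 5 lists. Exposed animal 3 had the lowest Kupffer cell, lymphocyte and interferon values of its group, whereas control animal 5 had the lowest Kupffer cell and lymphocyte values of its group but the highest mean of the 9 genes. The part of these cells in the differences was not tested.

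RNA quality, taken as the log2 ratio of 3' to 5' control sets, ran from 0.51 to 0.73 in controls and from 0.49 to 0.60 in exposed animals. With this ratio as a covariate, the difference in the mean of the 9 genes was 0.33, against 0.34 without it. Single genes moved more, and in both directions. Ifitm3 went from 0.37 to 0.22 and the second Ifit2 probe set from 0.21 to 0.13, while Usp18 rose from 0.54 to 0.66. The second Mx2 probe set went from -1.41 to -1.55. The highest ratio, 0.73, was that of control animal 5.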

How the data were processed

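Each deposited number is the log2 expression of a probe set. The submitters' processing notes name RMA and R 2.8.1 for its making. That the scale is log2 follows from its range (2.19 to 15.0), and the probe definition used is not given in the sources used here. RMA removes shifts shared by most genes of an array.

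The table holds 31099 probe sets, and the 57 control sets of the manufacturer were dropped. Gene names came from the platform annotation: 20826 probe sets named 1 gene, 436 several and 9780 none. A gene with several probe sets was read by the one with the highest mean where 1 value per gene was needed.

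Groups were compared with limma 3.58.1 in R 4.3.3 (lmFit, eBayes, two-sided, Benjamini-Hochberg over all 31042 probe sets), checked on simulated data. Relations between genes were tested in Python 3.11.15 by exact permutation within groups (14400 orders). Named genes were all members, a fixed set from the pathway, and those most correlated with the members. The members and lists were chosen with earlier results of these data known. Alternatives covered normalization, centring, RNA quality, array weights, the prior, a filter on low values, the replicate block and leaving out each animal. P-values rest on the spread between animals.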

Additional observations from a re-analysis of the deposited data

Results flagged for a closer look

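Of 26 groups of 5 values examined, those of the 12 probe sets and of the mean of the 9 genes, 1 held an animal that stood far from the rest of its group, where about 1 in 20 is given by chance. On the second Mx2 probe set, the value of exposed animal 1 was 6.75 and those of the other exposed animals 4.21 to 4.88, a gap of 0.736 of the range of the group.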

How the results depend on the processing

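Leaving out single animals gave 0 to 1 probe sets past the threshold, the 1 being the second Mx2 probe set without exposed animal 1, and 0 under each other setting, the replicate block included. The count of other pathway genes past it, an alternative added after seeing the data, was 0 under each of these settings. The difference in the mean of the 9 genes was 0.34. It was 0.31 to 0.40 without single animals, and 0.22 with all probe sets averaged per gene, which brings in the second Mx2 probe set. The replicate block cannot change this difference, since each number holds 1 control and 1 exposed animal, so its 0.34 under the block is no check. No call changed with the block. Over all probe sets, the deviations of same-numbered animals from their group means correlated at r from -0.07 to 0.09. This does not settle single genes. For Irf7, animals 1, 4 and 5 lay above and animals 2 and 3 below the mean of their group in both groups. The labels do not state whether the numbers pair animals.

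Of the 9 relations, 0 passed on the values reported and 3 with group means kept, which brings in the contrast that chose the genes: Irf7 with Usp18 (0.80), Ifit3 (0.79) and Mx2 (0.74). Correlations with Irf7 also turned sign, and the cause was not tested. With group means kept they were 0.22 for Ifit2, 0.27 for Stat2 and 0.35 for Ifitm3. After quantile normalization they were 0.017 for Ifit2 and 0.0024 for Ifitm3, and with RNA quality 0.055 for Ifitm3. With the replicate block they were -0.35 for Ifit3 and -0.075 for Usp18. Without single animals they ran from -0.38 to 0.42 for Mx1, -0.45 to 0.11 for Ifit2, -0.44 to 0.24 for Stat2 and -0.36 to 0.45 for Ifitm3, and the Mx2 probe sets correlated from -0.46 to 0.77. The number of animals limits all of these values.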
